A study of Mus musculus with 46 samples.

Results

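Polyamine metabolism was followed through 8 genes: Odc1 (ornithine decarboxylase), Azin1 (antizyme inhibitor), Oaz1 and Oaz2 (antizymes), Amd1 (S-adenosylmethionine decarboxylase), Srm (spermidine synthase), Sms (spermine synthase) and Sat1 (spermidine/spermine acetyltransferase). They were taken by gene symbol, and all 8 were present among the 9857 symbols listed for both treatments and the 10453 listed for either. Ribosome footprints, the mRNA fragments that a translating ribosome shields from nuclease, and polyadenylated RNA were counted in EPP2 cells, a mouse pancreatic cancer line. The study asked how mTOR inhibition and loss of the tRNA-modifying enzyme Ctu1 act on translation, and these comparisons address that question for the polyamine genes.

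Polyamines are small, positively charged molecules that bind RNA and that dividing cells need. Odc1 makes putrescine from ornithine, Amd1 supplies the aminopropyl donor that Srm and Sms use to build spermidine and spermine, and Sat1 acetylates both products for export or breakdown. Antizymes bind the Odc1 protein, deliver it to the proteasome and block polyamine uptake, while Azin1, a relative of Odc1 without decarboxylase activity, binds antizyme in its place. Antizyme itself is translated in full only when the ribosome skips the first base of an early stop codon, a step that polyamines promote. Torin 1 inhibits the kinase mTOR, a driver of protein synthesis. Ctu1 adds sulphur to the wobble uridine of the tRNAs that read the codons AAA, CAA and GAA, together called VAA codons.

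There were 4 groups of cultures. Control cells (genotype WT in the labels) received DMSO (n = 6) or torin 1 at 300 nM (n = 6) for 2 h, and Ctu1KO cells, here called Ctu1 iKO (inducible knockout) cells, received DMSO (n = 5) or torin 1 (n = 6) in the same way. Knockout was induced with doxycycline at 300 ng/ml from 4 days before. Cas9 in these cells was doxycycline-inducible and the EPP2 Cas9 line came from a clone grown from one cell. As CRISPR controls the methods name guide pairs against regions without genes or against Rosa26, or the omission of doxycycline, and do not say which of these the control libraries here had. Thus the controls may not match the Ctu1 iKO cells in Cas9 cutting or in doxycycline. Each culture gave a footprint and an RNA-seq library. The labels do not say which replicates came from separate cultures. The methods describe a pair of independent replicates made a day apart. The legends count the ribosome profiling replicates as independent experiments and give a smaller number of experiments for RNA sequencing than the labels list. Thus the n, SE and p-values given here measure the spread between these samples and may rest on fewer independent cultures.

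The 23 footprint libraries held 4602092 to 52907878 counts (median 15387951) and the 12 RNA-seq libraries of replicates 1 to 3 held 129881946 to 293648854. Of the 55 pairs of libraries within a group of each kind, none agreed within counting noise with reads taken as independent, the lowest ratio of observed to counting variance being 22.3 among footprints and 40.2 among RNA-seq libraries. Placed along the mean torin 1 minus DMSO difference of replicates 1 to 3, 6 of the 11 later RNA-seq libraries lay on the side opposite to their label (those labelled Ctu1 iKO DMSO replicates 4 and 5, control torin 1 replicates 5 and 6, and Ctu1 iKO torin 1 replicates 5 and 6), against 0 of the 11 later footprint libraries. Transcript values below therefore use replicates 1 to 3. Ctu1 itself gave 1.58 to 3.43 footprint CPM (counts scaled to a common library total) in control and 1.30 to 2.28 in Ctu1 iKO cells with DMSO (log2 change -0.54, SE 0.29, edgeR adjusted p = 0.35) and was not listed for torin 1. Its RNA-seq values were 4.54 to 4.76 CPM in control and 4.37 to 4.96 in Ctu1 iKO cells with DMSO. These counts over the gene do not show a loss of the transcript and do not check the knockout. Of 14 cell type markers, 6 were listed for both treatments and Epcam for DMSO, where it did not pass 2.89 footprint CPM, while Cdh1, Col1a2 and the leukocyte, endothelial and acinar markers were not listed.

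The sites at which the antizyme reading frame changes are shown because they set antizyme synthesis apart from that of the other genes. In each line the coding strand is given 5′ to 3′ from the reference genome GRCm38.p6, and the capitals mark the last codon of the first frame with the stop codon that follows it.
Oaz1, chr10:80828265-80828345, plus strand: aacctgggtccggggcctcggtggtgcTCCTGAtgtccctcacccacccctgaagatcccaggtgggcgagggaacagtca
Oaz2, chr9:65686242-65686322, plus strand: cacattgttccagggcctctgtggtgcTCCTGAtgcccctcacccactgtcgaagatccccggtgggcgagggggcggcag
RefSeq omits the first T of the stop codon from the coding sequence, at position 80828295 of chromosome 10 for Oaz1, after 68 codons, and at 65686272 of chromosome 9 for Oaz2, after 32 codons. Both sites lie within a coding exon and carry the same TCCTGA. The deposited counts are sums over each gene, so footprints before and after the shift were not told apart.

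The codons served by Ctu1 were unevenly spread over the 8 genes. VAA codons made up 1.76% of codons in Oaz1, 3.17% in Oaz2, 3.97% in Srm, 5.86% in Odc1, 7.49% in Amd1, 9.15% in Azin1, 10.4% in Sms and 11.7% in Sat1. Over the 9574 listed genes with a coding sequence, the median was 6.09% and the quartiles were 4.01% and 8.65%. Thus Odc1 lay near the middle of all genes, Oaz1 and Oaz2 below the lower quartile together with Srm, and Azin1, Sms and Sat1 above the upper quartile. The stretches of 30 codons richest in VAA codons in Odc1 and its relative Azin1 are shown with those codons in capitals.
Odc1, codons 112 to 141, chr12:17548007-17548096, plus strand, coding exon: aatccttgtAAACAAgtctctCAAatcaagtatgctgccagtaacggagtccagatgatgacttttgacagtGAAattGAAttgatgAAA
Azin1, codons 177 to 206, spliced from chr15:38495321-38497319, minus strand, coding exons: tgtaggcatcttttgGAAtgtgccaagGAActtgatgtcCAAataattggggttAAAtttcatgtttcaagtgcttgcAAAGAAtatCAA
Odc1 holds 6 VAA codons in this stretch and Azin1 holds 7. In the 7 promoter windows that matched 6 of the genes (RefSeq, GRCm38; Azin1 and Srm not matched), the motif CACGTG, which reads the same on both strands, occurred in 1 window, of Sms, against 7.15% of all 32851 windows of that length. A C at the annotated start followed by 4 pyrimidines, the beginning of a terminal oligopyrimidine tract, occurred in 0 of the 7 windows against 2.51% of all.

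Per length of coding sequence, the antizyme Oaz1 held the densest footprints of the 8 genes in control cells with DMSO, at 408 ± 81.8 RPKM (SD, n = 6; footprint CPM divided by the coding length in kilobases). Odc1 at 157 ± 20.3, Amd1 at 141 ± 29.2 and Azin1 at 134 ± 13.3 followed, and neighbours among these did not differ beyond their spread. Srm stood at 110 ± 10.98, Sms at 89.2 ± 8.6, Sat1 at 68.8 ± 6.4 and Oaz2 lowest at 38.7 ± 4.5. With both perturbations together, in Ctu1 iKO cells with torin 1, the order had changed: Oaz1 was at 624 ± 169, Azin1 at 157 ± 28.0 and Sat1 at 137 ± 28.3, whereas Odc1 at 58.1 ± 9.5 and Srm at 59.7 ± 8.7 were level with each other and above only Oaz2 at 46.3 ± 9.3. In percentiles of all genes with a coding sequence, footprint density of Odc1 went from 89.3 in control DMSO to 83.9 with torin 1, 87.3 in Ctu1 iKO DMSO and 76.3 in Ctu1 iKO torin 1. Transcript density per length placed Oaz1 at the 98.8th and Odc1 at the 95.9th percentile in control DMSO cells.

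**Figure D1:**
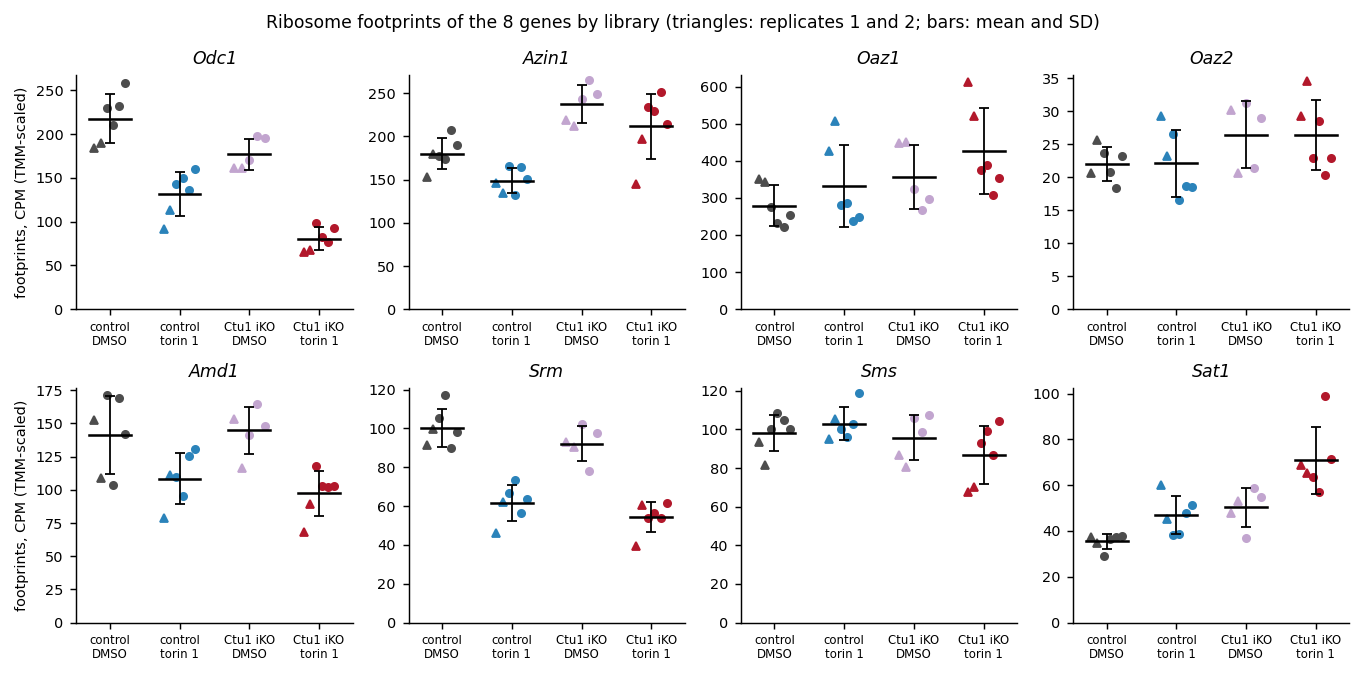
Footprints of the 8 genes in CPM (TMM-scaled, linear axis from 0) in each library of the 4 groups; triangles are replicates 1 and 2, circles replicates 3 to 6, and the black lines give the mean and SD. All Odc1 and Srm points with torin 1 lie below those with DMSO of the same genotype, and all Azin1 points of Ctu1 iKO DMSO lie above control DMSO.

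With torin 1, footprints of the 2 enzymes Odc1 and Srm fell in control cells, and those of Odc1, Srm and Amd1 fell in Ctu1 iKO cells. A gene is called here when its Benjamini-Hochberg adjusted p, over all genes tested with edgeR's quasi-likelihood test, is below 0.05. In control cells 2 of 8 genes were called lower and 0 higher, where 4.33% of the 9856 genes tested were called lower and 2.91% higher (7.24% in all). With the replicate number as a block, 4 of the 8 were called lower and 1 higher there, against 1045 and 974 of all genes. With library totals in place of TMM it was 2 and 1, against 327 and 602. With torin 1 in Ctu1 iKO cells 3 of 8 were called lower and 0 higher, against 4.52% and 3.48% of 9855 (8.0% in all). Of the markers, Vim footprints fell with torin 1 in both genotypes (log2 change -0.48, edgeR adjusted p = 0.0051, and -0.93, adjusted p = 9.0e-05), and in Ctu1 iKO cells Krt18 was called lower and Pdgfrb higher. Vim transcripts were called higher in control (0.38, adjusted p = 0.031) and in Ctu1 iKO cells (0.75, adjusted p = 0.0076). So were Krt18 transcripts (0.56, adjusted p = 0.0027, and 0.81, adjusted p = 0.017) and, in Ctu1 iKO cells, those of Krt8 (0.55, adjusted p = 0.016). The other listed marker transcripts were not called. The part of the markers in the torin 1 results was not tested. In these bulk samples a change in the share of cells that hold a transcript and a change per cell cannot be told apart. The median log2 change of the 8 genes was -0.14 and -0.16, beside 0.01 and 0.02 over all genes.

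Loss of Ctu1 went with higher footprints of Azin1 and Sat1 under both treatments and, with torin 1, with lower footprints of Odc1. The paper reports that ribosomes gather at AAA codons, and less so at CAA and GAA codons, when Ctu1 is lost. Footprints summed over a gene do not tell slower ribosomes from more synthesis, and this was not tested. With DMSO 2 of 8 genes were called higher and 0 lower, against 1.63% and 1.04% of 10397 genes (2.66% in all). With torin 1 the same 2 were called higher and 1 lower, against 2.23% and 2.6% of 9913 (4.83% in all). The median log2 change of the 8 genes was 0.15 with DMSO and 0.05 with torin 1, beside 0.00 and 0.01 over all genes. The comparisons share groups and so are not independent of each other. Markers differed between the genotypes too. With DMSO, Krt8, an epithelial keratin, was at 136 to 171 footprint CPM in control and 187 to 221 in Ctu1 iKO cells (log2 change 0.36, edgeR adjusted p = 0.035), and at 128 to 151 and 170 to 193 in RNA-seq (0.39, adjusted p = 0.056). Footprints of the other listed epithelial markers were not called with DMSO. Krt18 differed by 0.01 (edgeR adjusted p = 0.99), Krt19 by 0.03 (adjusted p = 0.96) and Epcam by -1.26 (adjusted p = 0.19). Vim, a mesenchymal filament protein, was at 3308 to 4174 and 3372 to 4744 footprint CPM with DMSO, and its transcripts were at 2370 to 2635 and 2982 to 3325 CPM (0.35, adjusted p = 0.057). With torin 1, Vim footprints were at 2302 to 3029 CPM in control and 1870 to 2593 in Ctu1 iKO cells (-0.35, edgeR adjusted p = 0.081), whereas Vim transcripts were called higher in Ctu1 iKO cells (0.72, adjusted p = 0.032). The 4 listed epithelial markers summed to 261 to 324 footprint CPM in control and 305 to 393 in Ctu1 iKO cells with DMSO, and the 3 listed mesenchymal markers to 3531 to 4594 and 3522 to 5067. In RNA-seq with DMSO the epithelial sums were 267 to 283 and 295 to 364 CPM and the mesenchymal sums 2555 to 2746 and 3137 to 3445. With torin 1, where 3 of each kind were listed, the epithelial sums were 233 to 316 footprint CPM in control and 270.2 to 323 in Ctu1 iKO cells, and the mesenchymal sums 2797 to 3417 and 2032 to 3245. In RNA-seq with torin 1 they were 345 to 378 and 478 to 526 CPM for epithelial and 3174 to 3501 and 4943 to 5585 for mesenchymal markers. Thus the transcript sums of both kinds lay higher in all Ctu1 iKO libraries than in control under both treatments, while the footprint sums overlapped. The part of these differences in the changes of Azin1, Sat1 and Odc1 was not tested.

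Odc1, which sets the rate of putrescine synthesis, had the largest fitted footprint change of the 8 genes, with torin 1 in Ctu1 iKO cells. Its footprints ranged from 184 to 258 CPM (median 220) in control cells with DMSO and from 91.7 to 160 (median 139) with torin 1. With DMSO the 5 Ctu1 iKO libraries gave 161, 161, 170, 197 and 195 CPM for replicates 1 to 5, and with torin 1 the range was 65.2 to 98.1 (median 79.8). In each genotype every torin 1 library lay below every DMSO library, and groups were apart in either direction for 5.44% of all genes in control and 8.16% in Ctu1 iKO cells. The change with torin 1 was -0.72 on the log2 scale in control (SE 0.13, edgeR adjusted p = 0.0026) and -1.14 in Ctu1 iKO cells (SE 0.12, adjusted p = 2.6e-05), that is to 0.608 and 0.454 of the DMSO level. Within replicates 3 to 6 the changes were -0.66 (adjusted p = 0.00094) and -1.11 (adjusted p = 8.2e-05), and within replicates 1 and 2 they were -0.86 (adjusted p = 0.053) and -1.29 (adjusted p = 0.015). As the groups did not overlap, Odc1 was also lower with torin 1 than with DMSO in 6 of 6 and 5 of 5 same-numbered libraries.

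Between the genotypes, Odc1 footprints in Ctu1 iKO cells with DMSO were 0.29 lower on the log2 scale than in control (log2 change -0.29, SE 0.10, edgeR adjusted p = 0.15), a difference that did not pass the threshold. The iKO library was lower in 5 of 5 same-numbered libraries, but not every such pair deviated together. The share of all genes with such a count was not taken. The difference was called at -0.27 (adjusted p = 0.037) when replicates 1 and 2 against 3 to 6 were entered as a factor. With torin 1 the difference was -0.71 (SE 0.14, adjusted p = 0.011), with 6 of 6 libraries lower, although Ctu1 iKO replicates 3 and 6 lay above the lowest control library (groups were apart for 4.31% of all genes). It was -0.74 (adjusted p = 0.0014) within replicates 3 to 6 and -0.64 (adjusted p = 0.52) within replicates 1 and 2, where no gene of all was called. Whether torin 1 acted more on Odc1 in Ctu1 iKO than in control cells was tested as an interaction. Without a block it was -0.42 (SE 0.18, edgeR adjusted p = 0.96 over 9857 genes). With the replicate number as a block it was called (-0.47, adjusted p = 0.022), and with replicates 1 and 2 against 3 to 6 as a factor it was not (-0.44, adjusted p = 0.054). Same-numbered libraries deviated together in 2 of the 4 footprint comparisons, so whether the torin 1 change of Odc1 differs between the genotypes depends on the block. Without a block 63 genes or 0.639% were called, all lower, and none was one of the 8.

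Odc1 transcripts differed less between the groups than its footprints. RNA-seq gave 345, 399 and 491 CPM for replicates 1 to 3 of control DMSO, 332, 391 and 453 of control torin 1, 362, 427 and 461 of Ctu1 iKO DMSO, and 305, 363 and 417 of Ctu1 iKO torin 1. All 4 groups overlapped. The log2 changes were -0.09 (SE 0.16) and -0.20 (SE 0.14) with torin 1 in control and Ctu1 iKO cells, 0.01 (SE 0.15) with Ctu1 iKO in DMSO and -0.10 (SE 0.15) in torin 1, with edgeR adjusted p from 0.43 to 0.97. With the replicate number as a block, the torin 1 change in Ctu1 iKO cells was called (-0.21, adjusted p = 0.024).

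**Figure D2:**
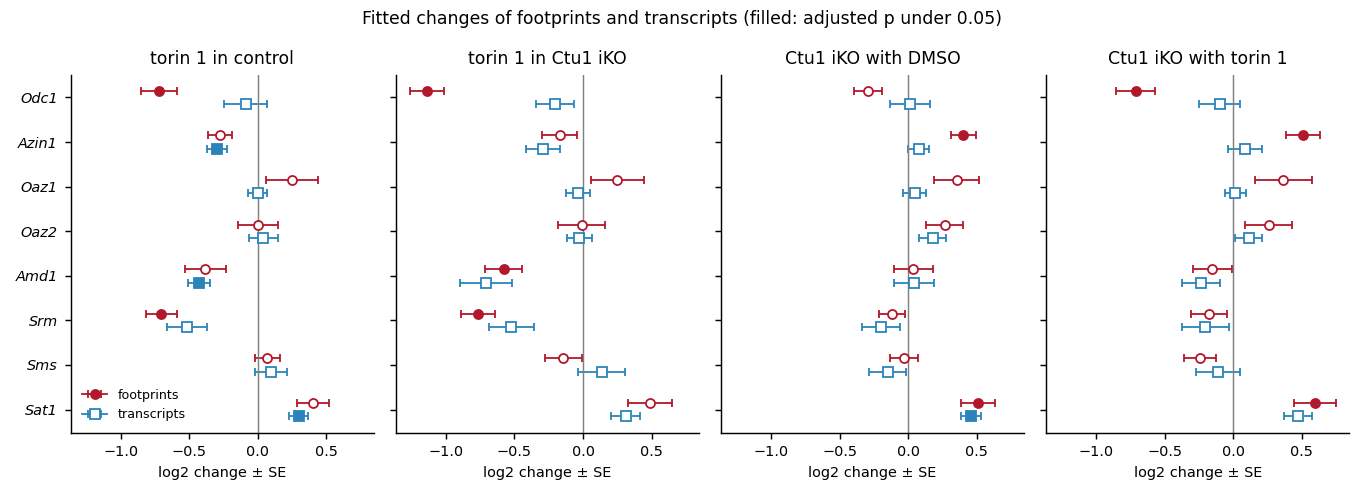
Fitted log2 changes with their standard errors for footprints (circles) and transcripts (squares, replicates 1 to 3) of the 8 genes in the 4 comparisons; filled symbols have an adjusted p under 0.05. Odc1 shows filled footprint symbols left of 0 in 3 panels, while its transcript symbols are open and near 0.

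The number of footprints per transcript, which corrects the footprints for the amount of RNA, was therefore followed for Odc1 in replicates 1 to 3. On the log2 scale, footprint CPM over RNA-seq CPM was -1.02 ± 0.10 (SD, n = 3) in control DMSO, -1.76 ± 0.09 in control torin 1, -1.33 ± 0.14 in Ctu1 iKO DMSO and -2.23 ± 0.17 in Ctu1 iKO torin 1. The 4 groups did not overlap, as was so for 0.561% of 9630 genes, and these means lay at the percentiles 19.2, 5.05, 11.5 and 2.10 of all genes. In a model over both kinds of library, translational efficiency of Odc1 differed by -0.70 (SE 0.25, edgeR adjusted p = 0.49) with torin 1 in control and by -0.90 (SE 0.24, adjusted p = 0.12) in Ctu1 iKO cells, neither called. When the footprint and RNA-seq libraries of the same number were entered as 1 culture, as the methods describe an aliquot of the same lysate, both were called, at -0.72 (adjusted p = 0.0135) and -0.92 (adjusted p = 0.011). The difference in Ctu1 iKO cells was also called with DESeq2 (-0.90, adjusted p = 0.018), with all footprint libraries (-0.94, adjusted p = 0.012) and within replicates 1 and 2 (-1.06, adjusted p = 0.043). It was called without Ctu1 iKO torin 1 replicate 3 (-0.997, adjusted p = 0.021), but not without any other single replicate or with library totals (-0.73, adjusted p = 0.23). That in control was called in none of these. For Ctu1 iKO the differences were -0.31 (SE 0.20) with DMSO and -0.48 (SE 0.29) with torin 1, each with an edgeR adjusted p of 1, and neither was called in either form.

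None of the other 7 genes was called for translational efficiency, where with torin 1 in control 1.18% of all genes were called (1.12% lower, 0.052% higher) and in Ctu1 iKO cells 1.77% (1.67% lower, 0.0936% higher). For Ctu1 iKO, edgeR called 0 of 10117 genes with DMSO (380 at an unadjusted p under 0.05, and 21 with DESeq2) and 0.114% with torin 1. Azin1 had a difference of 0.33 (SE 0.14, edgeR adjusted p = 1) for Ctu1 iKO with DMSO and 0.29 (SE 0.25, adjusted p = 1) with torin 1.

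**Figure D3:**
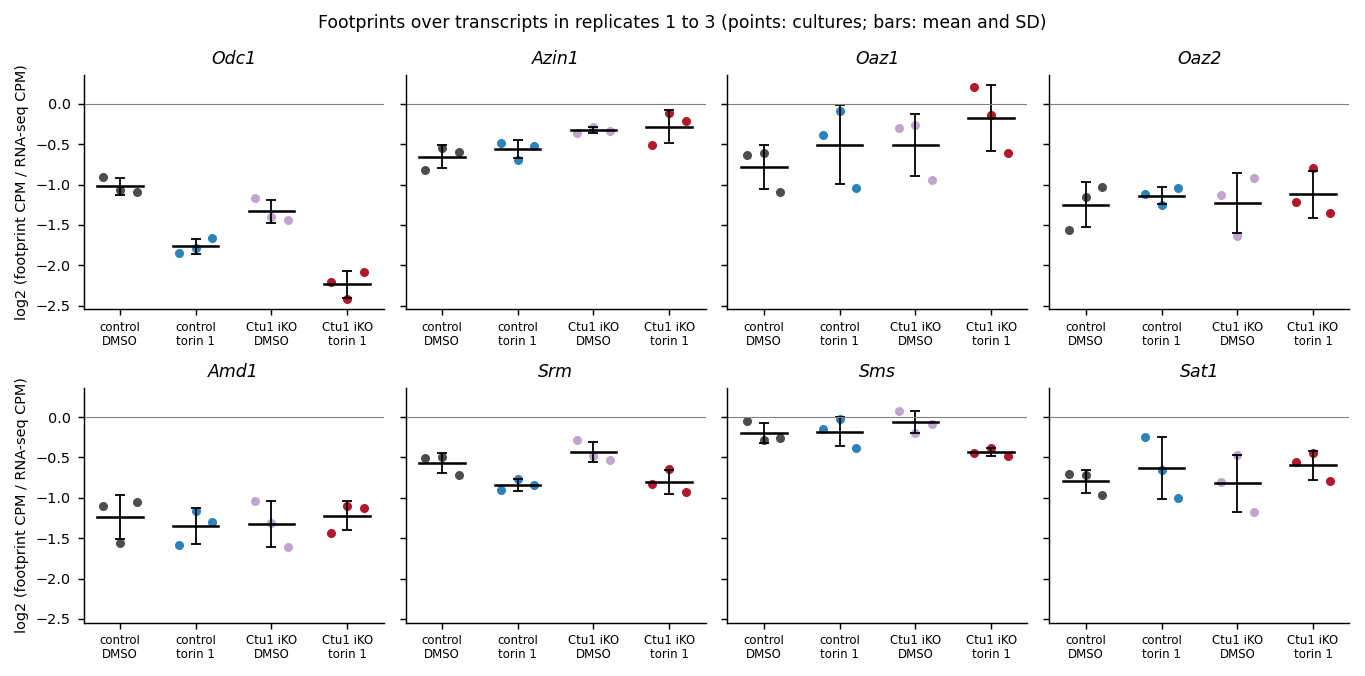
log2 of footprint CPM over RNA-seq CPM in replicates 1 to 3 of each group for the 8 genes (points are cultures, black lines the mean and SD). For Odc1 the groups are separate, from -1.02 ± 0.10 in control DMSO to -2.23 ± 0.17 in Ctu1 iKO torin 1, while for each of the other 7 genes some groups overlap.

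Azin1, which frees Odc1 from antizyme, differed from its relative Odc1. Its footprints were 153 to 207 CPM (median 178) in control DMSO and 132 to 165 (median 148) in control torin 1. In Ctu1 iKO cells they were 219, 213, 243, 265 and 249 with DMSO and 144 to 251 (median 222) with torin 1. All 5 Ctu1 iKO DMSO libraries lay above all 6 control DMSO libraries, and groups were apart in this way, in either direction, for 4.62% of all genes. With torin 1, replicate 1 of Ctu1 iKO (144 CPM) lay within the control range and the other 5 above it.

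The rise of Azin1 footprints in Ctu1 iKO cells, beside that of Krt8 but of no other epithelial marker given above, was 0.40 with DMSO (log2, SE 0.09, edgeR adjusted p = 0.034) and 0.51 with torin 1 (SE 0.12, adjusted p = 0.030). With DMSO the call was close to the threshold: leaving out 1 library at a time gave 0.36 to 0.45 and adjusted p from 0.034 to 0.086, and the call held without control replicate 5 or Ctu1 iKO replicate 1 or 2 and was lost without any of the other 8 libraries. With torin 1 single libraries were not left out, so whether that call holds without each of them is not known. Within replicates 3 to 6 the rises were 0.43 (adjusted p = 0.047) and 0.60 (adjusted p = 0.0040), and within replicates 1 and 2 they were 0.38 (adjusted p = 0.39) and 0.27 (adjusted p = 0.78). Azin1 transcripts were at 270, 262 and 270 CPM in control DMSO and 281, 260 and 307 in Ctu1 iKO DMSO, a log2 change of 0.08 (SE 0.08, adjusted p = 0.59), and the difference with torin 1 was 0.09 (SE 0.12, adjusted p = 0.75). With torin 1 in control cells Azin1 moved the other way: footprints differed by -0.28 (SE 0.09, adjusted p = 0.080), which was called at -0.27 (adjusted p = 0.0084) with the replicate number as a block, and transcripts fell to 204, 218 and 237 CPM, a change of -0.30 (SE 0.07, adjusted p = 0.036) that stayed called only without torin 1 replicate 3 when 1 library was left out (adjusted p up to 0.12). In Ctu1 iKO cells the torin 1 differences were -0.17 (SE 0.13, adjusted p = 0.50) for footprints and -0.29 (SE 0.13, adjusted p = 0.21) for transcripts, the latter called with the block (-0.30, adjusted p = 0.0095).

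Oaz1, the main antizyme, had uneven replicates. In control DMSO its footprints were 351 and 344 CPM in replicates 1 and 2 but 221 to 275 in replicates 3 to 6, and in Ctu1 iKO DMSO they were 448, 449, 323, 267 and 297. With torin 1 they were 239 to 508 (median 283) in control and 309 to 613 (median 383) in Ctu1 iKO cells. Replicates 1 and 2 were the 2 highest in each of the 4 groups. Nothing in the labels names a batch, and in RNA-seq of replicates 1 to 3 the highest Oaz1 value of each group was that of replicate 3, over 525 to 587 CPM in control DMSO and 541 to 624 in Ctu1 iKO DMSO.

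Oaz1 was higher in Ctu1 iKO than in control in 5 of 5 same-numbered libraries with DMSO and in 6 of 6 with torin 1. With DMSO not every such pair deviated together, and the share of all genes with such counts was not taken. Without allowance for the numbers the differences were 0.35 (SE 0.16, edgeR adjusted p = 0.28) and 0.36 (SE 0.21, adjusted p = 0.38), not called. With replicates 1 and 2 against 3 to 6 as a factor both were called, at 0.31 (adjusted p = 0.022) and 0.38 (adjusted p = 0.011). Within replicates 3 to 6 they were 0.27 (adjusted p = 0.18) and 0.44 (adjusted p = 0.019), and within replicates 1 and 2 they were 0.37 (adjusted p = 0.31) and 0.26 (adjusted p = 0.72). With the replicate number as a block the torin 1 difference was 0.38 (adjusted p = 0.0053). The changes with torin 1 were 0.25 (SE 0.19, adjusted p = 0.52) in control and 0.25 (SE 0.19, adjusted p = 0.50) in Ctu1 iKO cells, the latter called at 0.29 (adjusted p = 0.032) with the 2 sets of replicates as a factor.

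Oaz2, a second antizyme, was not called in any footprint comparison. Its libraries lay between 16.5 and 34.6 CPM over all 4 groups, and its log2 differences were 0.00 (SE 0.15) and -0.01 (SE 0.17) with torin 1 in control and Ctu1 iKO cells, and 0.27 (SE 0.14, edgeR adjusted p = 0.33) and 0.26 (SE 0.17, adjusted p = 0.47) for Ctu1 iKO with DMSO and torin 1. Neither antizyme transcript was called in the 4 comparisons, but Oaz2 transcripts in Ctu1 iKO cells with DMSO, 0.18 (SE 0.10, edgeR adjusted p = 0.31), were called with the replicate number as a block (0.18, adjusted p = 0.042).

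Srm, the spermidine synthase, fell with torin 1 in both genotypes. Footprints were 90.0 to 117 CPM (median 98.9) in control DMSO and 46.1 to 73.6 (median 63.0) in control torin 1, and in Ctu1 iKO cells they were 92.8, 90.3, 102, 78.2 and 97.4 with DMSO and 39.6 to 61.7 (median 55.1) with torin 1. The groups did not overlap within a genotype, as was so in either direction for 5.44% of all genes in control and 8.16% in Ctu1 iKO cells. The log2 change was -0.70 (SE 0.11, edgeR adjusted p = 0.00086) in control and -0.77 (SE 0.12, adjusted p = 0.00097) in Ctu1 iKO cells. Within replicates 3 to 6 it was -0.66 (adjusted p = 0.0054) and -0.73 (adjusted p = 0.0031), and within replicates 1 and 2 it was -0.81 (adjusted p = 0.14) and -0.88 (adjusted p = 0.26).

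Srm transcripts were lower with torin 1 as well, at 87.4, 106 and 120 CPM against 130, 141 and 173 in control and at 70.9, 94.8 and 104 against 113, 126 and 149 in Ctu1 iKO cells. These groups too did not overlap, as was so for 33.1% and 30.6% of all genes with 3 libraries against 3. The log2 differences of -0.52 (SE 0.15, edgeR adjusted p = 0.059) and -0.52 (SE 0.16, adjusted p = 0.097) missed the threshold and were called with the replicate number as a block, at -0.52 (adjusted p = 6.9e-06) and -0.53 (adjusted p = 0.00055). Between genotypes Srm footprints differed by -0.12 (SE 0.10, adjusted p = 0.58) with DMSO and -0.18 (SE 0.13, adjusted p = 0.52) with torin 1. The transcript differences of -0.20 (SE 0.14, adjusted p = 0.42) and -0.21 (SE 0.17, adjusted p = 0.54) were called with the block at -0.20 (adjusted p = 0.018) and -0.21 (adjusted p = 0.021).

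Amd1, the enzyme that commits S-adenosylmethionine to polyamines, moved in the direction of Srm. Its footprints were 104 to 172 CPM (median 147) in control DMSO and 78.4 to 130 (median 110) in control torin 1, with overlap. In Ctu1 iKO cells they were 153, 117, 142, 165 and 148 with DMSO and 68.5 to 118 (median 103) with torin 1, overlapping in 1 library of each. The change with torin 1 was -0.38 (SE 0.15, edgeR adjusted p = 0.15) in control, called with the replicate number as a block (-0.38, adjusted p = 0.038), and -0.58 (SE 0.14, adjusted p = 0.017) in Ctu1 iKO cells, where it was kept without any one of the 11 libraries and within replicates 3 to 6 (-0.52, adjusted p = 0.0079) but not within replicates 1 and 2 (-0.79, adjusted p = 0.27). Amd1 transcripts fell in control from 328, 322 and 358 CPM to 238, 249 and 271 (-0.43, SE 0.08, adjusted p = 0.014), a call lost without replicate 2 of either group. In Ctu1 iKO cells they went from 315, 292 and 433 CPM to 187, 192 and 258 (-0.71, SE 0.19, adjusted p = 0.062), called with the block (-0.70, adjusted p = 8.4e-05). Between genotypes Amd1 footprints differed by 0.04 (SE 0.14) and -0.15 (SE 0.14) and transcripts by 0.04 (SE 0.15) and -0.24 (SE 0.14) with DMSO and torin 1, none called, although the last was called with the block (-0.25, adjusted p = 0.024).

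Reads of Amd1 cannot be told apart with certainty from those of Amd2, a near-identical copy that is also listed. Over the 23 footprint libraries the log2 CPM of both had a Pearson r of 0.994, and Amd2 footprints fell with torin 1 in Ctu1 iKO cells by 0.58 on the log2 scale (log2 change -0.58, SE 0.16, edgeR adjusted p = 0.034). The values of Amd1 are therefore uncertain as to the gene.

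Sms, which turns spermidine into spermine, was not called in any footprint or transcript comparison. Its footprints lay at 81.7 to 108, 95.1 to 119, 80.3 to 108 and 67.7 to 104 CPM in control DMSO, control torin 1, Ctu1 iKO DMSO and Ctu1 iKO torin 1. The log2 differences were 0.07 (SE 0.09) and -0.14 (SE 0.13) with torin 1 in control and Ctu1 iKO cells, and -0.03 (SE 0.10) and -0.24 (SE 0.12) for Ctu1 iKO with DMSO and torin 1, with edgeR adjusted p from 0.28 to 0.91.

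Sat1, the acetyltransferase that starts polyamine breakdown, was higher in Ctu1 iKO cells under both treatments, as Krt8 alone of the epithelial markers was with DMSO. Footprints were 29.1 to 37.9 CPM (median 36.8) in control DMSO and 48.0, 53.3, 36.9, 58.8 and 54.8 in Ctu1 iKO DMSO, and with torin 1 they were 38.3 to 60.1 (median 46.5) in control and 57.2 to 99.0 (median 67.1) in Ctu1 iKO cells. In each treatment only 1 Ctu1 iKO library, replicate 3 with DMSO and replicate 4 with torin 1, reached into the control range. The rise was 0.51 (log2, SE 0.12, edgeR adjusted p = 0.045) with DMSO and 0.59 (SE 0.15, adjusted p = 0.035) with torin 1. With DMSO the call was kept without Ctu1 iKO replicate 3 (adjusted p = 0.016) and lost without any of the other 10 libraries, at log2 changes of 0.44 to 0.60 and adjusted p up to 0.11, and it was also lost within replicates 3 to 6 (0.52, adjusted p = 0.13) and within replicates 1 and 2 (0.49, adjusted p = 0.37). With torin 1 the values were 0.72 (adjusted p = 0.033) and 0.34 (adjusted p = 0.75). Single libraries were not left out there, and Ctu1 iKO replicate 5, at 99.0 CPM, lay far from the others of its group.

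Sat1 transcripts rose as well in Ctu1 iKO cells with DMSO, from 62.0, 57.8 and 57.6 CPM to 84.8, 74.4 and 84.8 (0.46, SE 0.07, edgeR adjusted p = 0.024), with groups apart as for 31.5% of all genes. With torin 1 they were at 71.2, 71.3 and 78.1 CPM in control and 102, 89.4 and 111 in Ctu1 iKO cells (0.47, SE 0.10, adjusted p = 0.075), with groups apart as for 26.5% of all genes, and were called with the replicate number as a block (0.47, adjusted p = 0.0012). The DMSO call was lost without any one library other than Ctu1 iKO replicate 3 (adjusted p up to 0.14). With torin 1, Sat1 was called higher in the main fits for control transcripts alone. In control every torin 1 footprint library lay above every DMSO library, with groups apart in either direction for 5.44% of all genes. The log2 change there was 0.40 (SE 0.12, adjusted p = 0.054) and was called with the block (0.39, adjusted p = 0.0069). Transcripts rose by 0.30 (SE 0.07, adjusted p = 0.030), a call lost without any one of the 6 libraries. In Ctu1 iKO cells the torin 1 differences were 0.49 (SE 0.16, adjusted p = 0.079) for footprints and 0.31 (SE 0.11, adjusted p = 0.13) for transcripts, the latter called with the block (0.31, adjusted p = 0.0061).

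Ratios within a library do not depend on its scaling, and they set the genes that restrain or free Odc1 beside Odc1 itself. Azin1 footprints over Odc1 footprints were 0.737 to 0.942 (median 0.830) in control DMSO, 0.886 to 1.59 (median 1.18) in control torin 1, 1.28 to 1.43 (median 1.34) in Ctu1 iKO DMSO and 2.22 to 3.25 (median 2.58) in Ctu1 iKO torin 1. The Ctu1 iKO libraries lay above all control libraries with DMSO and again with torin 1. How many pairs of genes separate in this way was not counted. The ratio rests on the same Azin1 and Odc1 values as the tests above and is no further evidence. Antizyme footprints, Oaz1 and Oaz2 summed, over Odc1 were 1.03 to 2.02 (median 1.25), 1.68 to 4.97 (median 2.09), 1.46 to 2.97 (median 2.08) and 4.07 to 9.85 (median 4.66) in the same order, and the lowest Ctu1 iKO torin 1 ratio lay below the 2 highest control torin 1 ratios, those of replicates 1 and 2. Sat1 over Odc1 was 0.127 to 0.204, 0.258 to 0.655, 0.217 to 0.330 and 0.650 to 1.28. These are ratios of footprints and do not give ratios of the proteins, of which the Odc1 protein is degraded with antizyme.

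**Figure D4:**
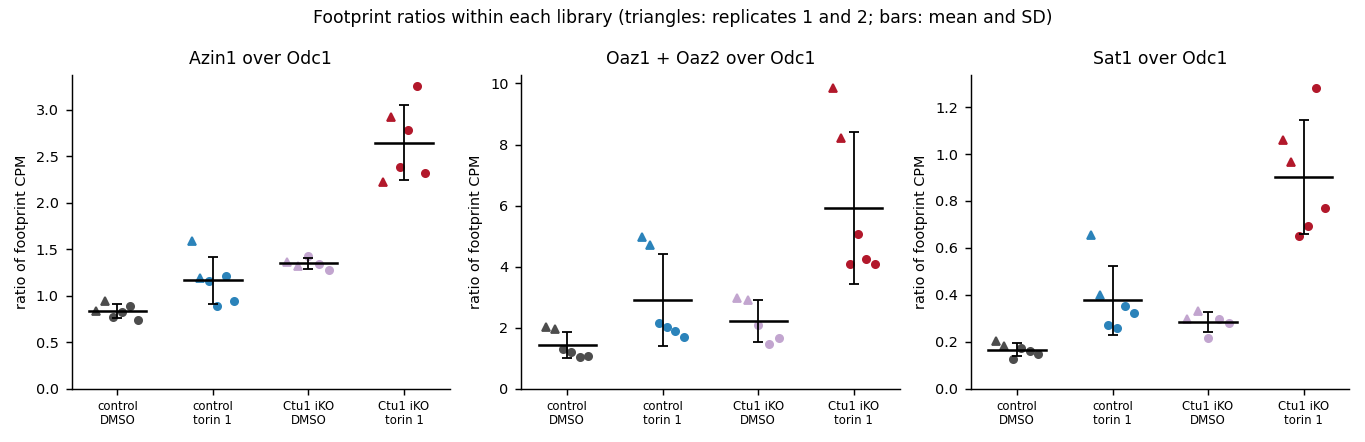
Ratio of footprint CPM within each library, with Odc1 in the denominator and Azin1, the sum of Oaz1 and Oaz2, or Sat1 in the numerator (linear axes from 0; triangles are replicates 1 and 2, black lines the mean and SD). Medians of Azin1 over Odc1 run from 0.830 in control DMSO to 2.58 in Ctu1 iKO torin 1, and replicates 1 and 2 give the highest antizyme ratios in the torin 1 groups.

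Over the 23 footprint libraries, in which groups, depth and scaling are shared, Odc1 varied in log2 CPM with Srm (Pearson r 0.87) and Amd1 (r 0.78) and against Sat1 (r -0.78) and Oaz1 (r -0.68), and hardly with Azin1 (r 0.06). Among 8856 genes with a mean of at least 100 footprint counts, those most like Odc1 were Cct4, a chaperonin subunit (r 0.978), Hspa8, a constitutive heat shock protein (r 0.975), and Rps15a, a small-subunit ribosomal protein (r 0.972). Those most like Srm were Eif4b, an initiation factor (r 0.959), Eef1g, an elongation factor subunit (r 0.951), and Rack1, a ribosome-bound protein (r 0.949). Azin1 was most like Ifrd1 (r 0.884), Tars (r 0.877) and Rab11a (r 0.876), and Sat1 most like Cast (r 0.876), Rasa1 (r 0.876) and Ppp3ca (r 0.868). Oaz1 was most like Selenoh (r 0.953), Gm49909 (r 0.913) and Mxra8 (r 0.907), and Amd1, after Amd2, most like Kpna1 (r 0.906) and Gm20521 (r 0.877). Oaz2 (2310022B05Rik, Zdhhc3 and Bad, r 0.750 to 0.787) and Sms (Seh1l, Ints10 and Psmc2, r 0.829 to 0.839) had less close neighbours.

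Of 28 further genes of polyamine supply, breakdown, salvage, transport and use, 21 were listed for both treatments. With torin 1, 1 was called lower in control and 1 higher and 2 lower in Ctu1 iKO cells, beside the shares of all genes given above, and for Ctu1 iKO 0 of 23 with DMSO and 0 of 21 with torin 1 were called. Mat2a, which makes S-adenosylmethionine, the substrate of Amd1, fell with torin 1 by 0.80 on the log2 scale in control (log2 change -0.80, SE 0.19, edgeR adjusted p = 0.015) and by 0.79 in Ctu1 iKO cells (log2 change -0.79, SE 0.22, adjusted p = 0.038). Its transcripts fell by 0.89 (log2 change -0.89, adjusted p = 0.0099) and 1.04 (log2 change -1.04, adjusted p = 0.010). Smox, which oxidises spermine back to spermidine, rose with torin 1 in Ctu1 iKO cells (1.19, SE 0.30, adjusted p = 0.025) and differed by 0.14 (SE 0.23, adjusted p = 0.81) in control. The interaction for Smox was 1.07 (SE 0.39, edgeR adjusted p = 0.64), so that a difference between genotypes was not shown. The other gene called was Amd2, given above.

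Among transcripts, members of the 8 genes were called in 3 instances with torin 1 in control, Azin1 and Amd1 lower and Sat1 higher, where 7.4% of all genes were called lower and 5.69% higher (13.1% in all). None was called with torin 1 in Ctu1 iKO cells (8.25% of all genes, 3.73% higher and 4.52% lower), Sat1 alone with Ctu1 iKO in DMSO (5.12% of all genes, 3.32% higher and 1.8% lower), and none with Ctu1 iKO in torin 1 (1.31%, 0.953% higher and 0.352% lower). These tallies depend on the block. With the replicate number as a block, 1 of the 8 was called higher and 3 lower with torin 1 in control (4206 of 9617 genes in all). In Ctu1 iKO cells it was 1 and 4 (3378 of 9619). For Ctu1 iKO it was 2 and 1 with DMSO (2831 of 10119) and 1 and 2 with torin 1 (3162 of 9650). With all RNA-seq replicates as labelled, the 6 libraries on the opposite side included, the torin 1 differences in control were -0.11 (adjusted p = 0.47) for Azin1 and -0.30 (adjusted p = 0.11) for Amd1, no longer called. No transcript of any gene was called in the interaction (0 of 9616, 140 at an unadjusted p under 0.05, and 3 with DESeq2). Of the 28 further genes, Mat2a was called lower in both genotypes and Smox higher in control with torin 1 (0.34, SE 0.09, edgeR adjusted p = 0.048). Slc3a2, a subunit of amino acid and polyamine transporters, was called higher with Ctu1 iKO in DMSO (0.35, SE 0.08, adjusted p = 0.0497) and was named after its values were seen.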

How the data were processed

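Footprints and polyadenylated RNA were counted in 46 libraries, 23 of each kind. The authors deposited whole-number counts per gene, 1 table for each treatment. Their methods and processing notes name UMI-tools 1.1.1, cutadapt 3.4 and STAR 2.5.3a. The labels give the mouse build mm10, whereas the methods name a human build. The tables hold 10420 entries (DMSO) and 9936 (torin 1), each with at least 1 library of 100 footprint counts or more, so genes with fewer were not analysed here. Entries that shared a symbol with another (11 symbols in each table) were dropped. All RNA-seq counts were even, against 48.7% odd footprint counts, and the reason is not given in the sources used here.

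Counts were scaled with TMM and tested with edgeR 4.0.16 (quasi-likelihood, R 4.3.3) with a filter at a mean count of 10 per gene. Adjusted p-values are Benjamini-Hochberg values over all genes of a comparison, two-sided, with 14 comparisons and 112 results over the 8 genes. The SE is the log2 change divided by the square root of F. Transcripts and translational efficiency used replicates 1 to 3, and translational efficiency was the interaction of library kind and condition. CPM, counts relative to the library total, are TMM-scaled. The scripts were tested on simulated data.

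Same-numbered libraries deviated together in footprints with torin 1 in control (r 0.516 to 0.702 over 6 pairs) and for Ctu1 iKO with torin 1 (0.367 to 0.630), and in all 4 transcript comparisons (0.533 to 0.856 over 3 pairs each). There the fit with the replicate number as a block is given where it changes a call. In the other footprint comparisons not every same-numbered pair deviated together. There r was -0.03 to 0.51 with torin 1 in Ctu1 iKO and -0.11 to 0.56 for Ctu1 iKO with DMSO, over 5 pairs each. Alternatives were DESeq2 1.42.0, library totals in place of TMM, no filter, a replicate block, replicates 1 and 2 against 3 to 6 as a factor or apart, all RNA-seq replicates as labelled, and leaving out single libraries.

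The 8 genes and the lists were chosen with earlier results of these data known. The other genes named are, for each footprint comparison, up to 3 called pathway genes each way, by size of change, Ctu1, and for each of the 8 genes the 3 with the highest Pearson r of log2(CPM + 1) over the 23 footprint libraries. Footprint counts of the 8 genes ranged from 138 (Oaz2) to 11940 (Odc1) per library, so depth limits Oaz2 most. Coordinates and sequences are from RefSeq on GRCm38.p6.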

Additional observations from a re-analysis of the deposited data

Results flagged for a closer look

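Of the 32 combinations of gene and group tested for a footprint library far from the others of its group, 3 were flagged, where chance flags about 1 in 20. Srm was at 39.6 CPM in Ctu1 iKO torin 1 replicate 1, the other 5 libraries lying between 53.9 and 61.7. Sat1 was at 29.1 CPM in control DMSO replicate 3, the others lying between 34.9 and 37.9, and at 99.0 CPM in Ctu1 iKO torin 1 replicate 5, the others lying between 57.2 and 71.3.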

How the results depend on the processing

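Without a filter and with DESeq2, library totals or a block, no footprint or transcript call on the 8 genes was lost, and over all 112 results on these genes 43 changed sign under some alternative, none of them called in either fit and all with a change below 0.27 in size on the log2 scale. Beside those given with the block, calls were added by DESeq2 for Azin1 (-0.28, adjusted p = 0.037) and Sat1 (0.40, adjusted p = 0.018) footprints with torin 1 in control, Sat1 footprints with torin 1 in Ctu1 iKO cells (0.49, adjusted p = 0.035), Srm transcripts with torin 1 in control (-0.51, adjusted p = 0.0078) and Ctu1 iKO cells (-0.51, adjusted p = 0.028), Amd1 transcripts with torin 1 in Ctu1 iKO cells (-0.70, adjusted p = 0.0045) and Sat1 transcripts for Ctu1 iKO with torin 1 (0.47, adjusted p = 0.0016). Oaz2 had the fewest footprint counts of the 8 genes.

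Footprint calls over all genes were 714 (torin 1 in control), 788 (torin 1 in Ctu1 iKO), 277 (Ctu1 iKO with DMSO), 479 (Ctu1 iKO with torin 1) and 63 (interaction). Transcript calls in the same order were 1259, 794, 518, 126 and 0, and translational efficiency calls 113, 170, 0 and 11. Fits with a replicate block gave, where the count moved by over 1.5 times, 2019 and 1425 footprint calls (torin 1 in control, Ctu1 iKO with torin 1), 139 in the interaction, 4206, 3378, 2831 and 3162 transcript calls, and 1 translational efficiency call for Ctu1 iKO with DMSO. In the 2 footprint comparisons where not every same-numbered pair deviated together, with correlations of -0.03 to 0.51 (torin 1 in Ctu1 iKO) and -0.11 to 0.56 (Ctu1 iKO with DMSO), the block added the call of Oaz1 for Ctu1 iKO with DMSO (0.32, adjusted p = 0.039), and in the interaction that of Odc1 (-0.47, adjusted p = 0.022). With replicates 1 and 2 against 3 to 6 as a factor, footprint calls were 1218, 1368, 737, 914 and 121, and Odc1 was not called in the interaction (-0.44, adjusted p = 0.054). Replicates 1 and 2 alone gave 134, 144, 0, 0 and 1 footprint calls (1067 and 846 genes at an unadjusted p under 0.05 for the 2 counts of 0), 1547 and 12 transcript calls for Ctu1 iKO with DMSO and torin 1, and 2 translational efficiency calls for Ctu1 iKO with torin 1. Replicates 3 to 6 alone gave 184 footprint calls for Ctu1 iKO with DMSO. DESeq2 gave 700, 842 and 107 footprint calls for both Ctu1 iKO comparisons and the interaction, 1963, 1609, 1530, 1092 and 3 transcript calls, and 227, 314, 21 and 99 translational efficiency calls. All RNA-seq replicates as labelled gave 0 (torin 1 in Ctu1 iKO), 2677 (Ctu1 iKO with DMSO) and 0 (Ctu1 iKO with torin 1) transcript calls (466 and 249 genes at an unadjusted p under 0.05 for the counts of 0), and the calls of Azin1 (-0.11, adjusted p = 0.47) and Amd1 (-0.30, adjusted p = 0.11) with torin 1 in control were lost. Library totals gave 1 and 3, and all footprint libraries 2 and 60, translational efficiency calls for Ctu1 iKO with DMSO and torin 1. Library totals also moved the median footprint change of all genes with torin 1 to 0.10 in control and 0.11 in Ctu1 iKO cells, with 602 of 929 and 580 of 897 calls higher in place of 287 of 714 and 343 of 788, and the median of translational efficiency to 0.16 and 0.20. The cause of these differences was not tested.

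Leaving out 1 library gave 144 to 285 footprint calls for Ctu1 iKO with DMSO, 412 to 1233, 123 to 1123, 0 to 511 and 1 to 406 transcript calls, and 63 to 104, 105 to 163 and, for Ctu1 iKO with torin 1, 0 to 8 translational efficiency calls. It was not run for footprint comparisons of 6 libraries against 6.

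Of the 60 changes given in the text, signs turned in these. Oaz2 footprints changed with torin 1 in control by 0.093 (library totals) and 0.19 (replicates 1 and 2), and in Ctu1 iKO cells by 0.084 (library totals), 0.026 (replicate block), 0.32 (replicates 1 and 2) and -0.10 to 0.054 without 1 library. For Ctu1 iKO with DMSO, Sms footprints differed by 0.0078 (library totals), 0.011 (replicates 3 to 6) and -0.080 to 0.022 without 1 library, and Amd1 footprints by -0.041 to 0.10. Odc1 transcripts differed for Ctu1 iKO with DMSO by -0.0029 (library totals), -0.17 (all replicates) and -0.10 to 0.16 without 1 library, with torin 1 in control by -0.21 to 0.066, and for Ctu1 iKO with torin 1 by -0.21 to 0.021. Azin1 transcripts differed for Ctu1 iKO with DMSO by -0.014 (all replicates) and with torin 1 by -0.047 to 0.16 without 1 library, and Amd1 transcripts for Ctu1 iKO with DMSO by -0.30 (all replicates), -0.10 (replicates 1 and 2) and -0.15 to 0.14 without 1 library.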
